A study of Mus musculus with 18 samples.

Results

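The endocannabinoid system of the mouse striatum was followed through 9 genes: the cannabinoid receptor gene Cnr1, Cnrip1, whose product binds that receptor, and 7 genes for enzymes that make or break down its lipid ligands. They were taken from the deposited count table by gene symbol, 9 of the 55421 genes it lists, and each had at least 100 reads in every library. Each of the 18 striatal libraries came from a single mouse between 12 and 14 months old. There were 5 wild-type mice (WT), 5 zQ175 mice, 3 CK2a'(+/-) mice and 5 zQ175:CK2a'(+/-) mice, all given as C57BL/6. zQ175 is a full-length knock-in model of Huntington's disease, in which mice heterozygous for an expanded CAG repeat in the huntingtin gene express the mutant protein wherever huntingtin is made. CK2a'(+/-) mice lack 1 allele of Csnk2a2, the gene of the CK2a' catalytic subunit of protein kinase CK2, in all cells, and their line began on a mixed 129/SvEv and C57BL/6J background. The sex of each mouse is not in the labels, and the sex ratios in the study's methods are not the same in all groups.

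Endocannabinoids are lipids that neurons make on demand from their membranes. The main ligand in brain, 2-arachidonoylglycerol (2-AG), is released from the postsynaptic cell by diacylglycerol lipases, crosses the synapse backwards and binds CB1, the receptor encoded by Cnr1, on the presynaptic terminal, where transmitter release then falls. Anandamide, an N-acylethanolamine, is the other classical ligand. In the striatum CB1 is abundant on the projection neurons of both output pathways and on their terminals, and it also sits on cortical afferents and on some interneurons. Loss of CB1 from the striatum is a known feature of Huntington's disease.

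Libraries held between 13612381 and 22702547 counted reads (median 18005044). Csnk2a2 (ENSMUSG00000046707), the targeted gene, matched the labels: it stood at 31.6 ± 2.26 CPM (reads adjusted for sequencing depth; SD, n = 5) in WT, 35.0 ± 2.29 (n = 5) in zQ175, 16.7 ± 1.78 (n = 3) in CK2a'(+/-) and 17.6 ± 1.64 (n = 5) in zQ175:CK2a'(+/-) libraries. Each of the 9 markers of striatal projection neurons was present in every library. Markers of the choroid plexus, the tissue of the brain's ventricles, summed to over 100 CPM in 4 libraries: 2042 CPM in WT replicate 1, 1703 CPM in WT replicate 3, 953 CPM in CK2a'(+/-) replicate 1 and 3039 CPM in zQ175:CK2a'(+/-) replicate 2. No zQ175 library was among them. The zQ175 libraries had the highest sums of cortical excitatory neuron markers in 4 of 5 cases, with replicate 5 at 330 CPM.

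Cnr1 (ENSMUSG00000044288) lies at chr4:33924593-33948831 on the plus strand of GRCm38. It is the member whose level differed most between the groups, and the sequence just upstream of its first RefSeq start is therefore shown. Promoter windows were present in the RefSeq table (GRCm38.p6) for 7 of the 9 genes, all but Dagla and Abhd12. The 250 bases before the first Cnr1 start, chr4:33924014-33924263, are given 5′ to 3′ on the plus strand, with capitals marking each GC box (GGGCGG, on either strand).
Cnr1 promoter: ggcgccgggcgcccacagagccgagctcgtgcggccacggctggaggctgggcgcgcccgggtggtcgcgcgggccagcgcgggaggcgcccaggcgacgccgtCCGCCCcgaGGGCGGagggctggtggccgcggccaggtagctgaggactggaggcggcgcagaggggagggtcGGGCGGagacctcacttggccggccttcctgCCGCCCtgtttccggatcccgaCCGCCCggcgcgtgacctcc
The window was 79.2% G and C, against a median of 52.4% over all promoters, and held 5 GC boxes. At least 1 GC box stood in 32.7% of the 32851 promoters of the same length, and 5 or more in 1.93%. The window held no CCAAT (33.8% of promoters), no TGACG (17.8%) and no TATAAA (12.4%), each searched on both strands. The windows of the later Cnr1 starts held no GC box. They were 68.8% G and C at chr4:33924394-33924643 and 49.2% at chr4:33926130-33926379. These letter matches describe the windows alone.

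Per unit of length, the endocannabinoid genes spanned a wide range of levels in striatum. Levels between genes are given as RPKM, here CPM divided by the summed exon length in kilobases that was deposited for the gene. Abhd12, a serine hydrolase that takes a small part in 2-AG breakdown and also cleaves lysophosphatidylserine, was highest, at 43.8 ± 2.64 RPKM (SD, n = 18), and ranked first in every library. Cnr1 followed at 21.5 ± 11 RPKM, but its rank moved between 2 and 5 from library to library. Dagla (13.4 ± 1.94 RPKM), Mgll (10.6 ± 1.79 RPKM) and Abhd6 (9.98 ± 1.19 RPKM) came next and overlapped one another over the libraries. Cnrip1 stood at 5.39 ± 1.37 RPKM. Napepld (3.01 ± 1.43 RPKM), Faah (2.82 ± 1.00 RPKM) and Daglb (2.64 ± 0.311 RPKM) were lowest, and the differences between them were smaller than their spread over the libraries. The order puts the genes of 2-AG metabolism, other than Daglb, above both genes of anandamide metabolism in mean level.

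**Figure D1:**
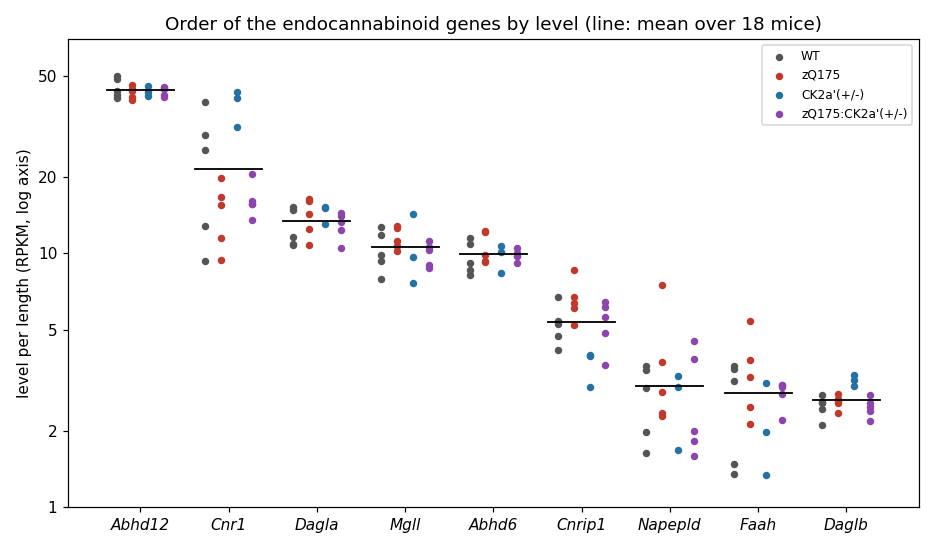
Level per length (RPKM, log axis) of the 9 genes in each of 18 striatal libraries, coloured by genotype, with a line at the mean over all libraries. Abhd12 stands above the rest at 43.8 RPKM, Cnr1 has the widest spread between genotypes, and Napepld, Faah and Daglb overlap at the low end.

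Averaged over both CK2a' genotypes, Cnr1 was lower and Cnrip1 higher with the zQ175 allele. The enzyme genes showed no difference that passed the test. The zQ175 effect was estimated as the mean of its effect with both CK2a' alleles (zQ175 against WT) and with 1 allele (zQ175:CK2a'(+/-) against CK2a'(+/-)), with edgeR's quasi-likelihood test and a Benjamini-Hochberg adjusted p (FDR) under 0.1 over the 20914 genes tested. In this averaged effect 2 of the 9 genes passed, where 4.9% of all genes tested did. In the components of that effect, 0 of 9 passed in zQ175 against WT by edgeR and by DESeq2, where 1.1% and 5.26% of all genes did. There 1 of 9 had an unadjusted p under 0.05 by edgeR and 2 by DESeq2, as did 13.9% and 8.53% of all genes. In zQ175:CK2a'(+/-) against CK2a'(+/-), 1 of 9 passed by edgeR, Cnr1, where 0.593% of all genes did. In that comparison 3 of 9 (Cnr1, Daglb and Cnrip1) had an unadjusted p under 0.05 by edgeR, as did 1921 of the 20914 genes.

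**Figure D2:**
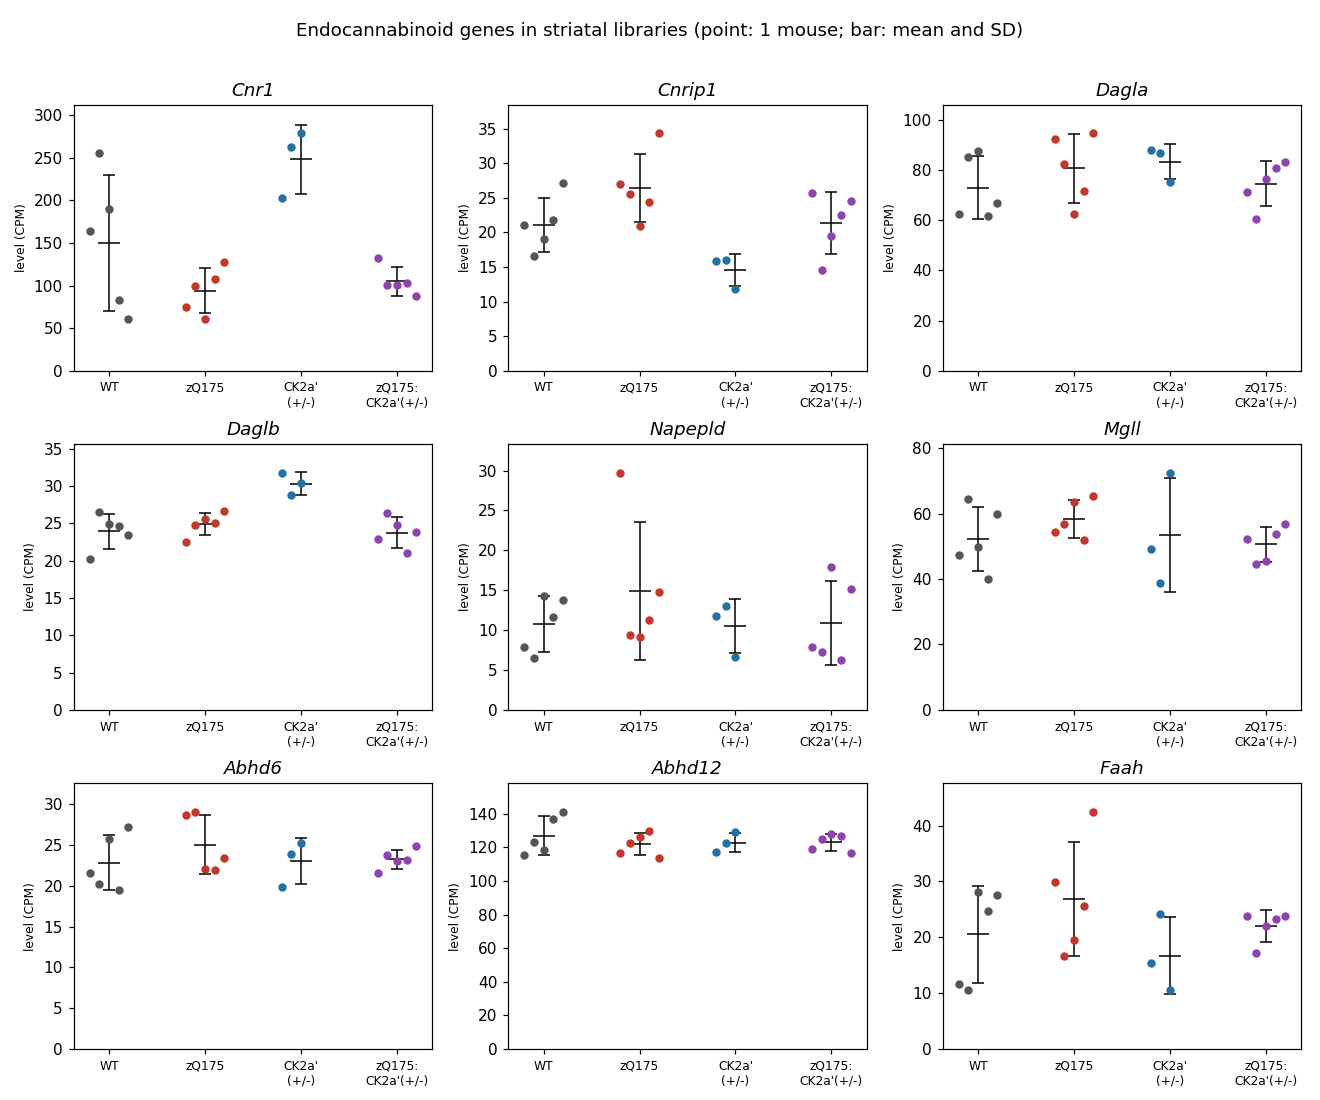
Level (CPM, linear axis from 0) of each gene in every library by genotype, with a bar at the mean and its SD. Cnr1 is between 60.9 and 132 CPM in all 10 mice with the zQ175 allele, and spans 60.2 to 279 CPM in the 8 mice without it.

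Cnr1 stood at 164, 255, 189, 82.7 and 60.2 CPM in WT replicates 1 to 5. It stood at 74.3, 100, 60.9, 107 and 128 CPM in the zQ175 libraries, at 203, 263 and 279 CPM in the CK2a'(+/-) libraries and at 132, 101, 101, 103 and 87.2 CPM in the zQ175:CK2a'(+/-) libraries. All 3 CK2a'(+/-) libraries and WT replicates 1, 2 and 3 lay above every zQ175 carrier, while WT replicate 4 lay within the carriers' range and WT replicate 5 just below the lowest carrier, so WT and zQ175 mice overlapped. The group means were 150.4 ± 79.8 CPM (SD, n = 5) in WT, 94.2 ± 26.8 (n = 5) in zQ175, 248 ± 40.2 (n = 3) in CK2a'(+/-) and 105 ± 16.6 (n = 5) in zQ175:CK2a'(+/-) mice. With both CK2a' genotypes averaged, Cnr1 was 1.94-fold lower with the zQ175 allele (log2 fold change -0.96, SE 0.207, 95% interval -1.36 to -0.55, FDR 0.0177). The call held on leaving out any single mouse, with FDR between 0.0019 and 0.0626. It was lost without the 4 libraries that held choroid plexus RNA, at a log2 fold change of -0.93 and FDR 0.153, a setting in which 126 genes passed in all.

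Taken separately, the difference of Cnr1 was -0.67 on the log2 scale between zQ175 and WT (SE 0.274, FDR 0.276), and did not pass. Leaving out WT replicate 2, the highest of its group, gave -0.41, while leaving out WT replicate 5, the lowest, gave -0.88 (FDR 0.473 and 0.104). Between zQ175:CK2a'(+/-) and CK2a'(+/-) mice the difference was -1.24 (SE 0.308, FDR 0.0995), and these groups did not overlap, as was so for 8.34% of all genes. That call sat at the threshold: it was lost, with FDR from 0.109 to 0.386, without WT replicate 1 or 3, zQ175 replicate 2 or 4, any of the 3 CK2a'(+/-) libraries or any of the 5 zQ175:CK2a'(+/-) libraries. The test of whether the zQ175 effect differed with CK2a' genotype gave an interaction of -0.57 for Cnr1 (95% interval -1.38 to 0.24, FDR 0.936; -0.85 to -0.37 leaving out 1 mouse), which leaves a wide range of differences possible.

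Markers of striatal projection neurons moved with Cnr1. Of the 9 projection neuron markers (Drd1, Drd2, Adora2a, Ppp1r1b, Penk, Tac1, Rgs9, Pde10a, Bcl11b), all were lower in the averaged zQ175 effect and 7 passed, with a median log2 fold change of -0.73, against 0.006 over all genes tested. Their summed level ranged from 2621 to 6217 CPM in WT, 1417 to 2858 CPM in zQ175, 4416 to 6155 CPM in CK2a'(+/-) and 2348 to 3322 CPM in zQ175:CK2a'(+/-) libraries. WT replicates 4 and 5, the low WT libraries for Cnr1, were also the lowest of WT for these markers, at 2677 and 2621 CPM. Relative to the summed markers, Cnr1 amounted to between 2.30% and 4.65% in WT, 2.37% and 5.24% in zQ175, 4.53% and 5.95% in CK2a'(+/-) and 3.11% and 4.11% in zQ175:CK2a'(+/-) libraries. The log2 ratio of Cnr1 to the markers differed between zQ175 and WT by 0.16, less than its spread between mice (exact two-sided permutation test, p = 0.571; the smallest p this design allows is 0.00794). It was 0.011 without WT replicate 5, 0.33 without zQ175 replicate 3 and 0.029 with Pde10a alone in place of the summed markers. Within CK2a'(+/-) mice (compared once the levels were known) the ratio was 0.47 lower on the log2 scale with the zQ175 allele, and no library of 1 group reached the range of the other (two-sided exact permutation p = 0.0357, which is the lowest value possible with 3 and 5 mice). With Rgs9 alone in place of the summed markers it was 0.44 lower, at an exact permutation p of 0.0714. In bulk tissue, fewer cells of a type and less RNA per cell cannot be told apart.

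**Figure D3:**
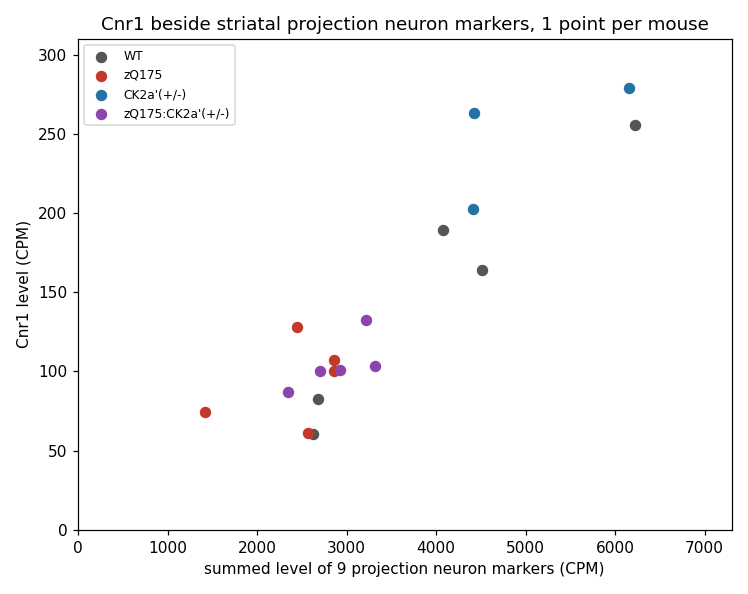
Cnr1 level (CPM) against the summed level of 9 striatal projection neuron markers (CPM) in each library, both axes from 0, coloured by genotype. WT replicates 1 to 3 and all 3 CK2a'(+/-) libraries are highest on both axes, and WT replicates 4 and 5 lie near the zQ175 carriers, replicate 5 being the lowest of all for Cnr1.

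Oligodendrocyte markers were also lower with zQ175: 5 of 5 had a negative averaged effect and 3 passed, and their sum lay between 5065 and 7088 CPM in WT, 3281 and 4992 CPM in zQ175, 5322 and 6695 CPM in CK2a'(+/-) and 3748 and 5099 CPM in zQ175:CK2a'(+/-) libraries. Of the astrocyte markers, 5 of 5 had a negative averaged effect and 1 passed, Aldh1l1 (-0.27, FDR 0.0763), with sums of 2559 to 3912 CPM in WT, 2591 to 3120 CPM in zQ175, 3342 to 3691 CPM in CK2a'(+/-) and 2783 to 3042 CPM in zQ175:CK2a'(+/-) libraries. Of the interneuron markers 5 of 6 had a negative averaged effect, the lowest FDR being 0.188 (Chat) by edgeR, at sums of 184 to 249 CPM in WT, 134 to 214 CPM in zQ175, 218 to 267 CPM in CK2a'(+/-) and 160 to 226 CPM in zQ175:CK2a'(+/-) libraries. The 6 cortical excitatory neuron markers were all higher in the averaged effect, and 1 passed, with sums of 60.7 to 330 CPM in zQ175 and 23.3 to 61.4 CPM in the other groups. The part of any of these lists in the values of Cnr1 or Cnrip1 was not tested.

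Cnrip1 (ENSMUSG00000044629, chr11:17051586-17079371, plus strand) encodes a small protein that binds the intracellular tail of CB1. It moved opposite to Cnr1. Its levels were 21.1, 16.6, 19.0, 21.7 and 27.1 CPM in WT, and 26.9, 25.6, 21.0, 24.3 and 34.3 CPM in zQ175 libraries. The CK2a'(+/-) libraries stood at 15.9, 16 and 11.9 CPM, and the zQ175:CK2a'(+/-) libraries at 25.7, 14.6, 19.5, 22.6 and 24.6 CPM. CK2a'(+/-) mice were below every WT mouse, and these 2 groups did not overlap, in either direction, for 3.2% of all genes. They were also below every zQ175 mouse, a separation whose share over all genes was not computed. The other groups overlapped. In the averaged effect Cnrip1 was 1.35-fold higher with the zQ175 allele (log2 fold change 0.44, SE 0.124, 95% interval 0.19 to 0.68, FDR 0.0645). Taken separately, neither part of this effect passed. Cnrip1 differed by 0.32 between zQ175 and WT (SE 0.16, FDR 0.373). Between zQ175:CK2a'(+/-) and CK2a'(+/-) mice the difference was 0.55 (SE 0.19, FDR 0.304). Between zQ175:CK2a'(+/-) and WT mice it was 0.019 (SE 0.16). The averaged call rested on several libraries. It was lost without WT replicate 1 (FDR 0.112), WT replicate 3 (0.114), zQ175 replicate 5 (0.109), CK2a'(+/-) replicate 3 (0.220), zQ175:CK2a'(+/-) replicate 1 (0.115) or replicate 5 (0.115), and without the 4 libraries with choroid plexus RNA (log2 fold change 0.50, FDR 0.160). The RPKM ratio of Cnr1 to Cnrip1 was 4.86 ± 3.24 (SD, n = 5) in WT, 2.20 ± 0.435 (n = 5) in zQ175, 10.9 ± 3.37 (n = 3) in CK2a'(+/-) and 3.15 ± 0.76 (n = 5) in zQ175:CK2a'(+/-) mice. An exon of Cnrip1 shares 199 bases, 5.0% of its exon length, with Plek on the opposite strand, and the strand setting used in counting is not given in the sources used here.

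The diacylglycerol lipases that make 2-AG did not pass in any comparison. Dagla (ENSMUSG00000035735, chr19:10245265-10304877, minus strand), the main synaptic enzyme, lay between 60.4 and 94.6 CPM over all libraries and had an averaged log2 fold change of -0.0063 (SE 0.094, 95% interval -0.19 to 0.18). Daglb (ENSMUSG00000039206, chr5:143464584-143505942, plus strand), the isoenzyme known chiefly from macrophages and microglia, was less abundant, with an RPKM ratio of Dagla to Daglb of 5.14 ± 0.829 (SD, n = 18) and a range of 3.81 to 6.81.

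Daglb stood apart in CK2a'(+/-) mice. Its levels were 31.8, 28.7 and 30.4 CPM in these 3 libraries. They were 20.2, 26.5, 24.9, 24.7 and 23.4 CPM in WT, 22.5, 24.7, 25.5, 25.1 and 26.7 CPM in zQ175 and 22.9, 26.4, 24.7, 21.0 and 23.8 CPM in zQ175:CK2a'(+/-) libraries. All 3 CK2a'(+/-) libraries were above the other 15, as was so in either direction for 0.459% of all genes, a group chosen here after the values were seen. The difference from WT was 0.34 on the log2 scale (SE 0.106, 95% interval 0.13 to 0.55, unadjusted p = 0.0041, FDR 0.999), which did not pass over all genes. Its interaction was -0.41 (SE 0.141, FDR 0.843), and its averaged zQ175 effect -0.15 (SE 0.0707, FDR 0.304). The exons of Daglb share 2309 bases, 24.1% of their length, with Rac1 on the opposite strand, a gene with 55875 reads over all libraries against 8221 for Daglb, so its count is uncertain where strand was not used.

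Napepld and Faah, which make and hydrolyse anandamide, were low and variable. Napepld (ENSMUSG00000044968, chr5:21662901-21701396, minus strand) encodes a phospholipase D that releases N-acylethanolamines, and ranged from 6.48 to 14.2 CPM in WT, 9.10 to 29.8 CPM in zQ175, 6.67 to 13.0 CPM in CK2a'(+/-) and 6.32 to 17.9 CPM in zQ175:CK2a'(+/-) libraries. Faah (ENSMUSG00000034171, chr4:115967145-116017926, minus strand) encodes the main anandamide hydrolase, and ranged from 10.6 to 28.1, 16.7 to 42.5, 10.5 to 24.1 and 17.2 to 23.8 CPM in the same order. All groups overlapped for both genes. In the averaged zQ175 effect Faah had a log2 fold change of 0.39 (SE 0.213, 95% interval -0.03 to 0.81, FDR 0.387) and Napepld of 0.26 (SE 0.26, 95% interval -0.25 to 0.77, FDR 0.686), so that neither passed and the intervals reach differences as large as that of Cnrip1. Without zQ175 replicate 1 the value for Napepld was 0.050. The RPKM ratio of Faah to Napepld was 1.01 ± 0.341 (SD, n = 18).

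Abhd12, a 2-AG hydrolase, was the steadiest of the 9 genes, and Mgll and Abhd6, the other hydrolases, varied more. Abhd12 (ENSMUSG00000032046, chr2:150832493-150904741, minus strand) ranged only from 114 to 141 CPM over the 18 libraries, a coefficient of variation of 6.01%, against 51.1% for Cnr1. Its averaged zQ175 effect was -0.030 (SE 0.053, 95% interval -0.13 to 0.07). Mgll (ENSMUSG00000033174, chr6:88724412-88828360, plus strand), the monoacylglycerol lipase of the presynaptic terminal that clears most 2-AG in brain, ranged from 38.7 to 72.6 CPM, and Abhd6 (ENSMUSG00000025277, chr14:8002902-8056763, plus strand), its postsynaptic counterpart, from 19.5 to 29.1 CPM. Their averaged effects were 0.042 (SE 0.109, 95% interval -0.17 to 0.25) for Mgll and 0.075 (SE 0.089, 95% interval -0.10 to 0.25) for Abhd6. For these 3 genes a change by as much as that of Cnr1 lay outside the interval. The RPKM ratio of Mgll to Abhd6 was near 1, at 1.07 ± 0.195 (SD, n = 18).

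**Figure D4:**
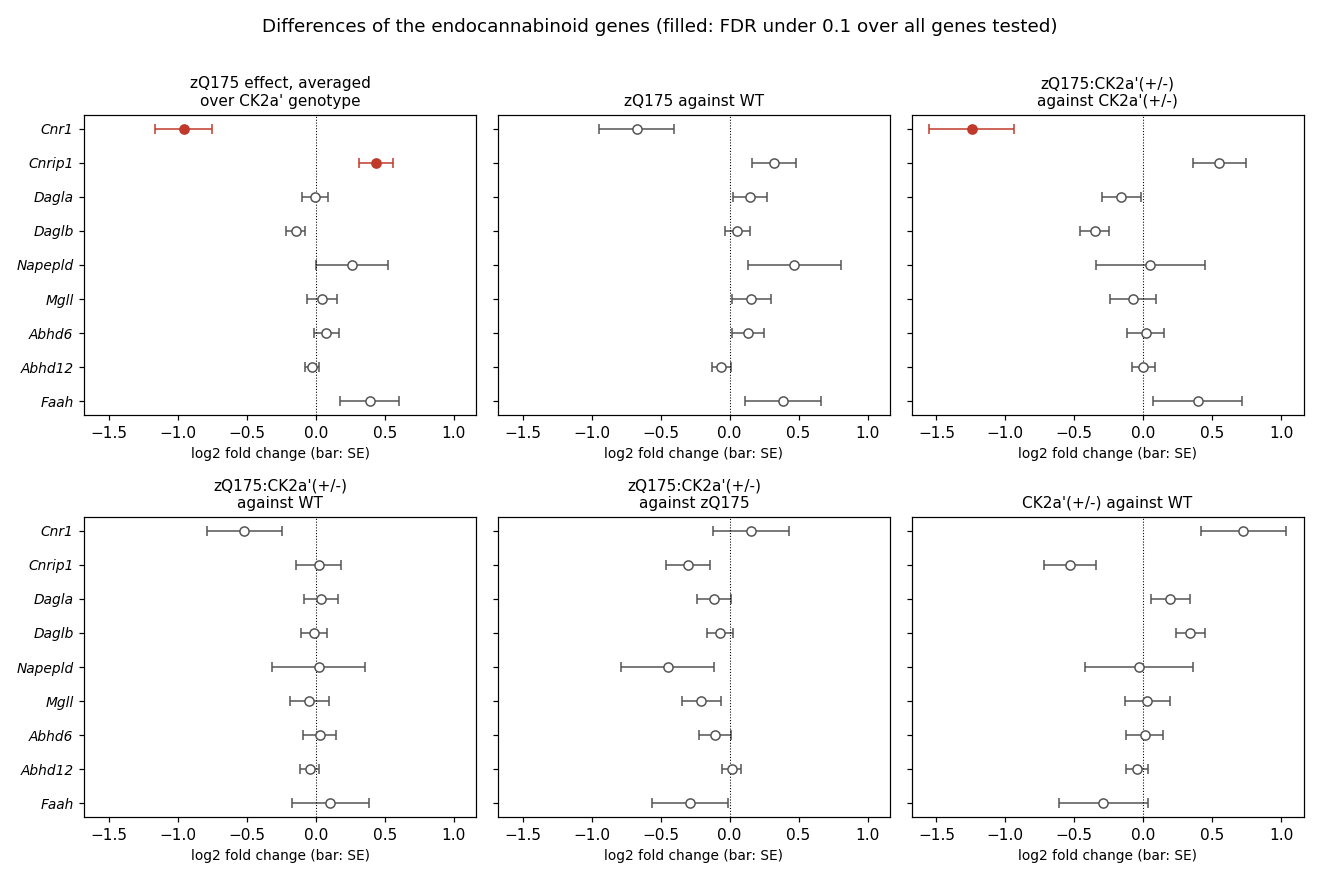
Log2 fold change with its SE for the 9 genes in 6 comparisons; filled points passed FDR 0.1 over all genes tested. Only Cnr1 (-0.96) and Cnrip1 (0.44) in the averaged zQ175 effect and Cnr1 (-1.24) between zQ175:CK2a'(+/-) and CK2a'(+/-) mice are filled.

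The comparison of zQ175:CK2a'(+/-) with zQ175 mice asks what loss of a CK2a' allele does in the presence of the disease allele. By edgeR and by DESeq2 0 of the 9 genes passed, where 0.0143% and 0.145% of all genes did, and by edgeR 0 had an unadjusted p under 0.05, where 6.27% of all genes did. The log2 fold changes ran from -0.45 to 0.16 with a median of -0.11. Cnr1 differed by 0.16 (SE 0.274, 95% interval -0.38 to 0.69, FDR 0.965) and Cnrip1 by -0.30 (SE 0.16, 95% interval -0.62 to 0.01, FDR 0.830). Leaving out 1 mouse gave 0.032 to 0.29 for Cnr1 and -0.38 to -0.19 for Cnrip1. The interval for Cnr1 covers both no difference and an increase by 0.69 on the log2 scale. Against WT, zQ175:CK2a'(+/-) mice had 0 of 9 genes past the threshold by edgeR and by DESeq2, against 0.0143% and 0.725% of all genes, and 0 at an unadjusted p under 0.05 by edgeR, against 9.13%. Cnr1 was at -0.52 (SE 0.274, FDR 0.588), and at -0.26 without WT replicate 2. This comparison and that of zQ175 with WT share the 5 WT libraries.

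The effect of losing a CK2a' allele without the zQ175 allele was also compared. In CK2a'(+/-) against WT, 0 of 9 passed by edgeR and by DESeq2, where 0.0143% and 0.0293% of all genes did, and 3 had an unadjusted p under 0.05 with either tool, as did 4.48% and 3.04% of all genes. These were Daglb, as above, Cnr1 at 0.72 (SE 0.309, 95% interval 0.12 to 1.33, unadjusted p = 0.029, FDR 0.999) and Cnrip1 at -0.53 (SE 0.189, 95% interval -0.90 to -0.16, unadjusted p = 0.0104, FDR 0.999). Daglb and Cnrip1 did not overlap between the groups, 2 of 9 genes against 3.2% of all genes. The group has 3 mice, and it is also a control of the averaged zQ175 effect, so the values of Cnr1 and Cnrip1 here and there are not independent. For the interaction, 0 of 9 passed by edgeR and by DESeq2, where 0.00478% and 0.103% of all genes did. Daglb alone had an unadjusted p under 0.05 with either tool, as did 5.39% and 3.55% of all genes.

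The genes most alike to Cnr1 over the 18 libraries were sought among 9529 genes with a mean of at least 10 CPM, by Pearson's r of log2 CPM. The 5 nearest were Scn4b, the beta 4 sodium channel subunit enriched in projection neurons (r = 0.934), Gli3 (0.921), Lrrc10b (0.916), Traip (0.915) and Atp2b1, a plasma membrane calcium pump (0.914). Their Spearman's rho lay between 0.882 and 0.922, and with the group means taken out r lay between 0.843 and 0.929. All 5 were lower in the averaged zQ175 effect, at log2 fold changes from -1.22 for Scn4b to -0.38 for Atp2b1. Choosing them by correlation with Cnr1 over all groups favours this shared direction. Genes alike to Cnrip1 included Fgd1 (r = 0.869) and 1700025G04Rik (0.866). The points share each library's genotype, depth and cell makeup, and the correlations are descriptions.

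Beyond the members, 43 genes around the pathway were followed in 6 lists, of which 37 passed the filter on low counts. In the averaged zQ175 effect 1 was higher and 2 were lower past FDR 0.1 by edgeR, 8.11% of the 37 where 4.9% of all genes tested passed, with a median log2 fold change of -0.020, against 0.006 over all genes tested. DESeq2, which gave an FDR for 35 of the 43 genes, called 8 in this effect, where it called 8.92% of all genes with an FDR. They were these 3 and Abhd4, Gnao1, Gnaq, Ptgs2 and Scp2. In zQ175 against WT 0 passed by edgeR, where 1.1% of all genes did, with 19 positive and 18 negative, 10 at an unadjusted p under 0.05 by either tool (13.9% and 8.53% of all genes by edgeR and DESeq2), and 3 of 35 passed by DESeq2 (Abhd4, Homer2 and Ptgs2, FDR 0.0379, 0.0479 and 0.0641), where 5.26% of all genes with an FDR did. Among 11 CB1 partners and genes of Gi/o signalling, the route by which CB1 lowers cyclic AMP, 2 passed by edgeR. Adcy5, the main adenylyl cyclase of projection neurons, was lower (-0.62, SE 0.137, FDR 0.0207), from 577 to 1398 CPM in WT and 408 to 676 CPM in zQ175 libraries. Gprasp1, whose product sorts internalised receptors including CB1 to lysosomes, was higher (0.19, SE 0.0594, FDR 0.0892), with 435 to 544 CPM in WT and 513 to 628 CPM in zQ175 libraries. The WT and zQ175 libraries overlapped for both genes.

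Of 4 intracellular lipid carriers, Fabp5, which carries anandamide among other fatty acid derivatives, was lower (-0.40, SE 0.102, FDR 0.0425), at 38.6 to 52.4 CPM in WT and 31.5 to 42.3 CPM in zQ175 libraries. None of the other lists held a gene that passed by edgeR, and for each the 2 genes with the smallest p in zQ175 against WT are given from that comparison with edgeR's values. Among 11 receptors and effectors upstream of 2-AG production these were Homer2, a scaffold of group I metabotropic glutamate receptors (0.74, SE 0.234, FDR 0.158), and Gnaq, the G protein subunit that activates phospholipase C beta (0.23, SE 0.087, FDR 0.239). Among 6 other enzymes of N-acylethanolamine synthesis they were Abhd4 (-0.37, SE 0.103, FDR 0.106) and Gde1 (-0.24, SE 0.0835, FDR 0.186), both of which act on routes that bypass Napepld.

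Of 4 other degrading and oxidising enzymes, 3 were tested, and the 2 nearest the threshold were Ptgs2, the inducible cyclooxygenase that also oxygenates 2-AG (1.25, SE 0.401, FDR 0.161), and Naaa, an acid amidase (-0.24, SE 0.139, FDR 0.451). Ptgs2 was low, at 0.847 to 2.18 CPM in WT and 1.36 to 8.71 CPM in zQ175 libraries, and its difference was 0.65 (FDR 0.452) without zQ175 replicate 5. Of 7 other receptors for these lipids only the nuclear receptors Ppara (0.26, SE 0.354, FDR 0.798) and Pparg (-0.18, SE 0.382, FDR 0.878) passed the filter. Cnr2, the gene of the second cannabinoid receptor, Gpr55, Gpr18, Gpr119 and the channel gene Trpv1 did not, with at most 16 reads in any library, and Cnr2 had no read in 4 of 18. Differences in these 5 genes were not detectable at this depth.

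**Figure D5:**
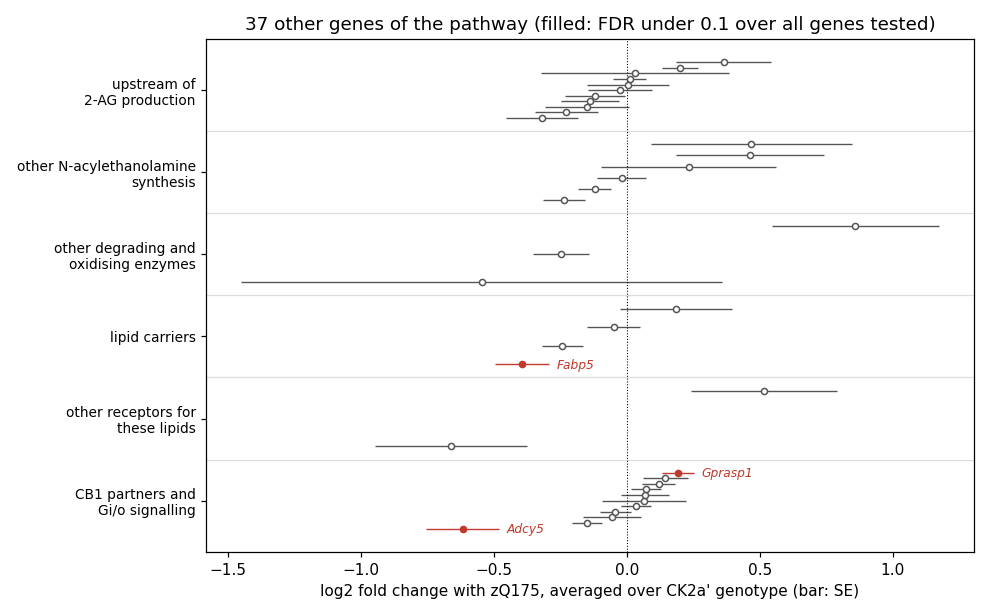
Log2 fold change with its SE in the averaged zQ175 effect for 37 other genes of the pathway, grouped by list; filled points passed FDR 0.1 over all genes tested. Adcy5 and Fabp5 are filled on the lower side and Gprasp1 on the higher side.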

How the data were processed

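Striatal RNA of 18 mice was sequenced from total RNA libraries of a stranded kit (Takara Pico). After trimming (Trimmomatic) and alignment to GRCm38 (HISAT2 2.1.0), the authors counted reads per gene with Subread 1.6.2 (versions from the submitters' processing notes) and deposited raw read counts without normalization, with a summed exon length for each gene. The strand setting of the counting is not given in the sources used here. Gene symbols were matched to 55154 of the 55421 identifiers.

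Counts were analysed with edgeR 4.0.16 in R 4.3.3 (TMM normalization, filterByExpr, quasi-likelihood test). All 4 genotypes entered 1 model, and p-values were adjusted over the 20914 genes kept. CPM used TMM library sizes. The script was tested on simulated counts with the same spread for every gene, a setting simpler than these data. The comparison of zQ175:CK2a'(+/-) with CK2a'(+/-) mice, and its ratio test, were added after the values were seen. Replicate numbers did not pair the mice. DESeq2 1.42.0, other size factors, no filter, the replicate number as block, Xist as covariate, a robust fit, FDR 0.05, only the groups compared and leaving out each mouse were tried. Leaving out the libraries with choroid plexus RNA, without or with the library highest in cortical markers, was added after seeing the data. Libraries held 13612381 to 22702547 counts, and precision rests on 3 to 5 mice per group.

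The members and lists were chosen with earlier results of these data known. All 9 members are named, with every listed pathway gene that passed FDR 0.1 in any of the 6 planned comparisons, the 2 genes of smallest p in zQ175 against WT for lists where none passed, and genes most alike to Cnr1 (5) and Cnrip1 (of the first 3) by Pearson's r. A planned marker and an alike gene are not reported here, and the marker sums were computed without the former.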

Additional observations from a re-analysis of the deposited data

Results flagged for a closer look

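Within groups of 5 mice, the highest or lowest library was compared with its nearest neighbour, for the 9 genes in 3 groups each, 27 tests in all, of which chance alone flags about 1 in 20. In 2 of them a library stood apart by more than Dixon's critical ratio of gap to range, 0.71. Napepld in zQ175 replicate 1 was at 29.8 CPM, with the next zQ175 library at 14.8 CPM (ratio 0.722). Faah in zQ175:CK2a'(+/-) replicate 2 was at 17.2 CPM, with the other 4 libraries between 22 and 23.8 CPM (ratio 0.722). That library was also the one with the highest choroid plexus sum, 3039 CPM, and zQ175 replicate 1 had the lowest sum of projection neuron markers, 1417 CPM. The part of either in these values was not tested.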

How the results depend on the processing

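All 9 genes kept the side of the threshold that they had in every comparison other than the averaged zQ175 effect, zQ175 against WT and zQ175:CK2a'(+/-) against CK2a'(+/-), under every alternative. Where a value moved, the cause was not tested. In the averaged effect, 1 gene passed at FDR 0.05 and with the replicate number as block, and 0 passed without the 4 libraries that held choroid plexus RNA and also without the library highest in cortical markers. With the replicate block, Cnr1 stood at -0.84 (FDR 0.1003) and Cnrip1 at 0.37 (FDR 0.0749). The numbers did not pair the mice: only 2 of 24 same-number pairs had a correlation of deviations over 0.1, and 1 of 18 libraries correlated best with its own number. Without the 4 libraries Cnr1 stood at -0.93 (FDR 0.153) and Cnrip1 at 0.50 (FDR 0.160), and without the fifth as well at -0.99 (FDR 0.136) and 0.45 (FDR 0.195). Cnrip1 did not pass FDR 0.05 (0.0645). DESeq2 called both (FDR 0.0032 and 0.0184). In zQ175 against WT, 1 gene, Cnr1, passed without a filter (-0.68, FDR 0.0899), and its FDR lay between 0.0899 and 0.727 over all settings. In zQ175:CK2a'(+/-) against CK2a'(+/-), 0 genes passed at FDR 0.05, with the block (Cnr1 -1.11, FDR 0.382), with Xist as covariate (-1.29, FDR 0.142), with the robust fit (-1.24, FDR 0.242), without the 4 libraries (-1.36, FDR 0.277) and without the fifth as well (-1.35, FDR 0.259). Over these and the other settings, leaving out 1 mouse aside, the FDR of Cnr1 in that comparison lay between 0.00023 and 0.382. Directions that changed sign were those of values near 0: Dagla in the averaged effect (0.0029 with Xist, 0.061 without the 4 libraries, 0.032 without the fifth as well, -0.048 to 0.032 leaving out 1 mouse), Mgll in the averaged effect (-0.014 without the 5 libraries, -0.053 to 0.18 leaving out 1 mouse) and Daglb in zQ175 against WT (-0.023 without the 5 libraries, -0.014 to 0.091 leaving out 1 mouse). The ratio of Cnr1 to the markers in zQ175:CK2a'(+/-) against CK2a'(+/-) mice was -0.44 with Rgs9 alone (exact permutation p = 0.0714) and -0.54 to -0.34 leaving out 1 mouse, where the smallest possible p is 0.0571 or more.

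The count over all genes moved more. In zQ175 against WT it was 230, and 51 at FDR 0.05, 855 with DESeq2, 451 without a filter, 0 with only the groups compared, 98 with the block and 1 without the 4 or 5 libraries. In the averaged effect it was 1024, and 469 at FDR 0.05, 519 with the block, 126 without the 4 and 114 without the 5 libraries. In zQ175:CK2a'(+/-) against CK2a'(+/-) it was 124, and 27 at FDR 0.05, 322 with DESeq2, 297 without a filter, 461 with only the groups compared, 12 with the block, 75 with Xist, 14 without the 4 and 17 without the 5 libraries. In zQ175:CK2a'(+/-) against WT it was 3, and 1 at FDR 0.05, with the block or with only the groups compared, 123 with DESeq2, 85 without a filter, 6 with the robust fit and 0 without the 5 libraries. In zQ175:CK2a'(+/-) against zQ175 it was 3, and 39 with DESeq2, 51 without a filter and 1 with the block. In CK2a'(+/-) against WT it was 3, and 11 with DESeq2, 19 without a filter, 1 with the block and 0 with only the groups compared or without the 5 libraries. For the interaction it was 1, and 19 with DESeq2, 10 without a filter and 0 at FDR 0.05, with Xist and without the 4 or 5 libraries. Leaving out each mouse gave 0 to 587 genes in zQ175 against WT, 348 to 1161 in the averaged effect (1 to 2 of the 9 genes), 6 to 221 in zQ175:CK2a'(+/-) against CK2a'(+/-) (0 to 1), 1 to 34 in zQ175:CK2a'(+/-) against WT, 1 to 6 against zQ175, 1 to 9 in CK2a'(+/-) against WT and 0 to 2 for the interaction. With 3 CK2a'(+/-) mice, the difference of Cnr1 from WT was imprecise (SE 0.309), and a value of 0.72 on the log2 scale did not pass (FDR 0.999).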
